A study of Homo sapiens with 6 samples.

Results

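Zinc enters and leaves a keratinocyte through membrane transporters and is held inside it by metallothioneins, and 10 genes of these families were followed across p38α-knockout and wild-type cells with and without interleukin-1α (IL-1α). The 10 genes, out of 27945 in the deposited table, were taken by their symbols: the importers SLC39A2, SLC39A6, SLC39A8, SLC39A10 and SLC39A14, the exporter SLC30A1, and the metallothioneins MT1E, MT1F, MT1X and MT2A. They were selected on their RPKM values in all 6 libraries, since the list was made with earlier results of these data in view, so those values are given as descriptions. Messenger RNA of HaCaT cells, keratinocytes of human skin that grow without limit in culture, was sequenced in bulk with a stranded kit, and the unit is RPKM, reads per kilobase of transcript scaled to a common depth. The 4 groups were p38α-knockout cells (genotype MAPK14-null) given IL-1α in PBS for 4 h (2 libraries), wild-type cells given the same (2 libraries), p38α-knockout cells given PBS for 4 h (unstimulated, 1 library) and wild-type cells given PBS for 4 h (unstimulated, 1 library). The labels do not describe the MAPK14 edit, the number of knockout clones or whether replicates were separate cultures, so every p-value measures only the spread between these libraries.

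Importers of the SLC39 (ZIP) family move zinc into the cytosol from outside the cell or from organelles, and exporters of the SLC30 (ZnT) family move it out of the cytosol. Metallothioneins are small cysteine-rich proteins that bind zinc, copper and cadmium, and the zinc-sensing transcription factor MTF1 raises their genes and SLC30A1 when free zinc increases, through short metal response elements (MREs) in the promoters. Inflammatory cytokines are known to raise SLC39A14 in liver cells and SLC39A8 through NF-κB in several cell types, and in skin, zinc deficiency is known for dermatitis.

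The promoters of the 2 metallothioneins with a RefSeq window, of the exporter and of SLC39A2 are shown because MTF1 and the IL-1α-responsive factor AP-1 act through short sites of this kind. Each run is the 250 bases before the annotated start, 5′ to 3′ on the strand of the gene, from RefSeq on GRCh38.p14. Capitals mark matches on either strand to the MRE core (TGCACNC or TGCGCNC) or to the AP-1 site (TGANTCA), and no 2 matches of different motifs overlap. Their places are MT2A at chr16:56608334-56608583 (plus strand), MT1X at chr16:56682220-56682469 (plus strand), SLC30A1 at chr1:211579162-211579411 (minus strand) and SLC39A2 at chr14:20999043-20999292 (plus strand).
MT2A: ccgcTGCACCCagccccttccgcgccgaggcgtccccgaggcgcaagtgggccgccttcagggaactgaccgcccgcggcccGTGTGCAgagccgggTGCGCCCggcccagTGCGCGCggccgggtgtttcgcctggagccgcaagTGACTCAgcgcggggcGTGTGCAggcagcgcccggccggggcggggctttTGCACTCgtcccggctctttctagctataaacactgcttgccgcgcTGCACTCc
MT1X: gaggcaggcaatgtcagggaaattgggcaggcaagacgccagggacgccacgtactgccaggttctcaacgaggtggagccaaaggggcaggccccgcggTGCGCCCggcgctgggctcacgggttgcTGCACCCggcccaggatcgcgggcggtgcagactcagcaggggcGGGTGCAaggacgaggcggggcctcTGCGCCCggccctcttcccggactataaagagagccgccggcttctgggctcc
SLC30A1: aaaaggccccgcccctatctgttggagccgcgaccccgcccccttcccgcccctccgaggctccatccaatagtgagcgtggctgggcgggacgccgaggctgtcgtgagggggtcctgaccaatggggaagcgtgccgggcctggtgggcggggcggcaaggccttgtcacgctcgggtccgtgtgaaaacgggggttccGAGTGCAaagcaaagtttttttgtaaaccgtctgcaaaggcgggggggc
SLC39A2: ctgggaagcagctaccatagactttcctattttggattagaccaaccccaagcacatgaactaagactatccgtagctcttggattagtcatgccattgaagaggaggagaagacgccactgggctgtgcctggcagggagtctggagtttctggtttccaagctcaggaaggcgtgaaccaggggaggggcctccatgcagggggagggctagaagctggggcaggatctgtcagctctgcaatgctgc

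The MT2A window held 7 MRE cores and 1 AP-1 site, the MT1X window 4 MRE cores and 0 AP-1 sites, the SLC30A1 window 1 MRE core, and the SLC39A2 window 0 of either. Of 35093 windows of this length in RefSeq, 24.8% held at least 1 MRE core, 0.368% at least 4 and 0.0513% at least 6, and 6.57% held an AP-1 site. The NF-κB form searched (GGG, 2 free bases, TT, 1 free base, CC), present in 5.06% of windows, had 0 matches in the 4 windows. RefSeq windows matched 7 of the 10 genes, and those of SLC39A6, SLC39A8 and SLC39A10 held at most 1 MRE core each. A match describes letters and says nothing of binding in these cells.

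**Figure D1:**
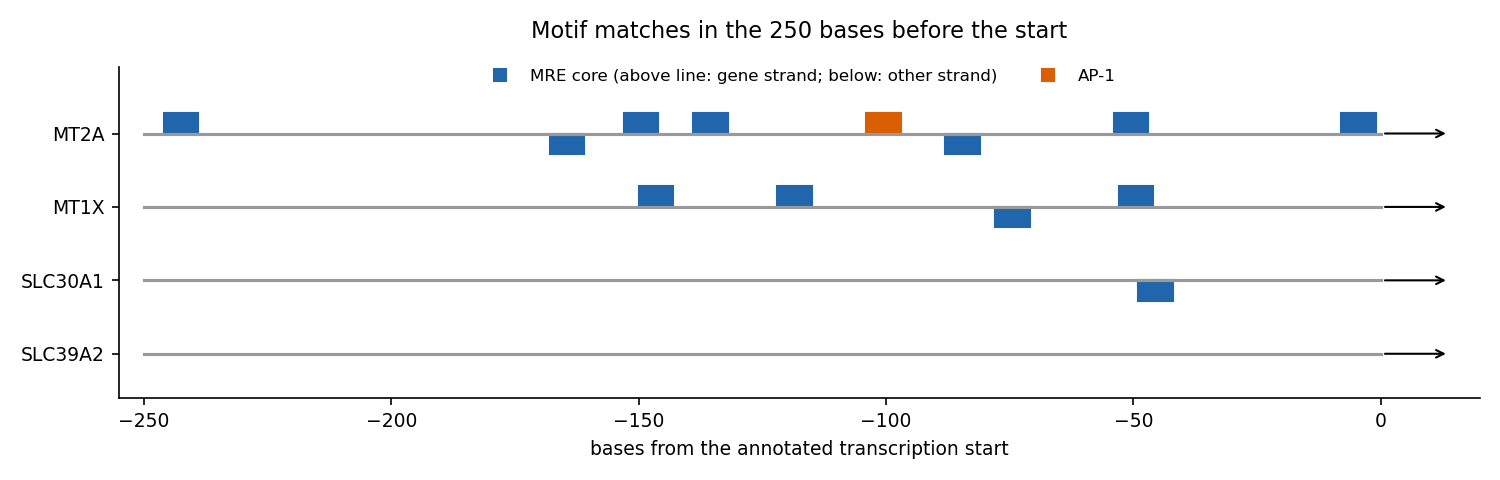
Positions of MRE cores (blue; above the line on the strand of the gene, below it on the other strand) and AP-1 sites (orange) in the 250 bases before the annotated start of MT2A, MT1X, SLC30A1 and SLC39A2, with the horizontal axis in bases from the start. MT2A carries 7 MRE cores and 1 AP-1 site, MT1X 4 MRE cores, SLC30A1 1 and SLC39A2 0.

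Depth, recovered from the values, ran from 16293958 reads (a wild-type IL-1α library) to 34968035 reads (unstimulated knockout). All 8 keratinocyte markers looked at, KRT5, KRT14 and TP63 among them, stood at 26.6 RPKM or more in every library. Markers of leukocytes, endothelium, melanocytes, fibroblasts and muscle summed to between 1.11 and 1.83 RPKM over 7 genes, with PECAM1 listed at 0 throughout. MAPK14, the gene targeted in the knockout, was still read at 10.99 and 7.41 RPKM in knockout IL-1α, 13.3 and 14.8 RPKM in wild-type IL-1α, 11.3 RPKM in unstimulated knockout and 14.4 RPKM in unstimulated wild-type cells, a level of RNA that does not show whether p38α protein was lost. In bulk RNA, fewer cells of a type and less RNA per cell cannot be told apart.

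The unstimulated wild-type library stood apart in a way that bears on the metallothioneins, whose transcripts are 399 to 501 bases long. Among 787 genes shorter than 600 bases, the median log2 change with IL-1α was -0.52 in wild type and 0.01 in knockout, and the median of knockout minus wild type (log2) was -0.02 with IL-1α and -0.58 without it. Genes over 3000 bases had medians of 0.03, -0.00, 0.14 and 0.19 in the same order. Short transcripts were thus read high in the 1 unstimulated wild-type library, and since that group has no second library, the library and the condition cannot be told apart. Results that do not use it are the IL-1α response in knockout and the genotypes under IL-1α. For log2 changes that use it, the value after removing each library's trend with transcript length is given beside the value as deposited.

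Over the 12925 genes that reached 1 RPKM in some library, limma with Benjamini-Hochberg adjustment on log2(RPKM + 0.5) called 0.217% of genes for the IL-1α response in wild type, 0.0696% for the response in knockout, 0.155% between genotypes under IL-1α (0.0464% higher in knockout) and 0% for the genotype by IL-1α interaction. All 10 zinc genes met that minimum. Of them, 1 of 10 passed in wild type, the importer SLC39A2 (lower; 0.0155% of all genes were called lower and 0.201% higher), and 0 of 10 passed in each of the other 3 tests. At unadjusted p below 0.05 there were 4 of the 10 in the wild-type response (18.1% of all genes), 2 in the knockout response (3.58%), 3 between genotypes under IL-1α (14.9%) and 4 in the interaction (4.39%), and voom weights on rebuilt reads called 0 in all 4. Since these values chose the genes, nothing is read from those counts.

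**Figure D2:**
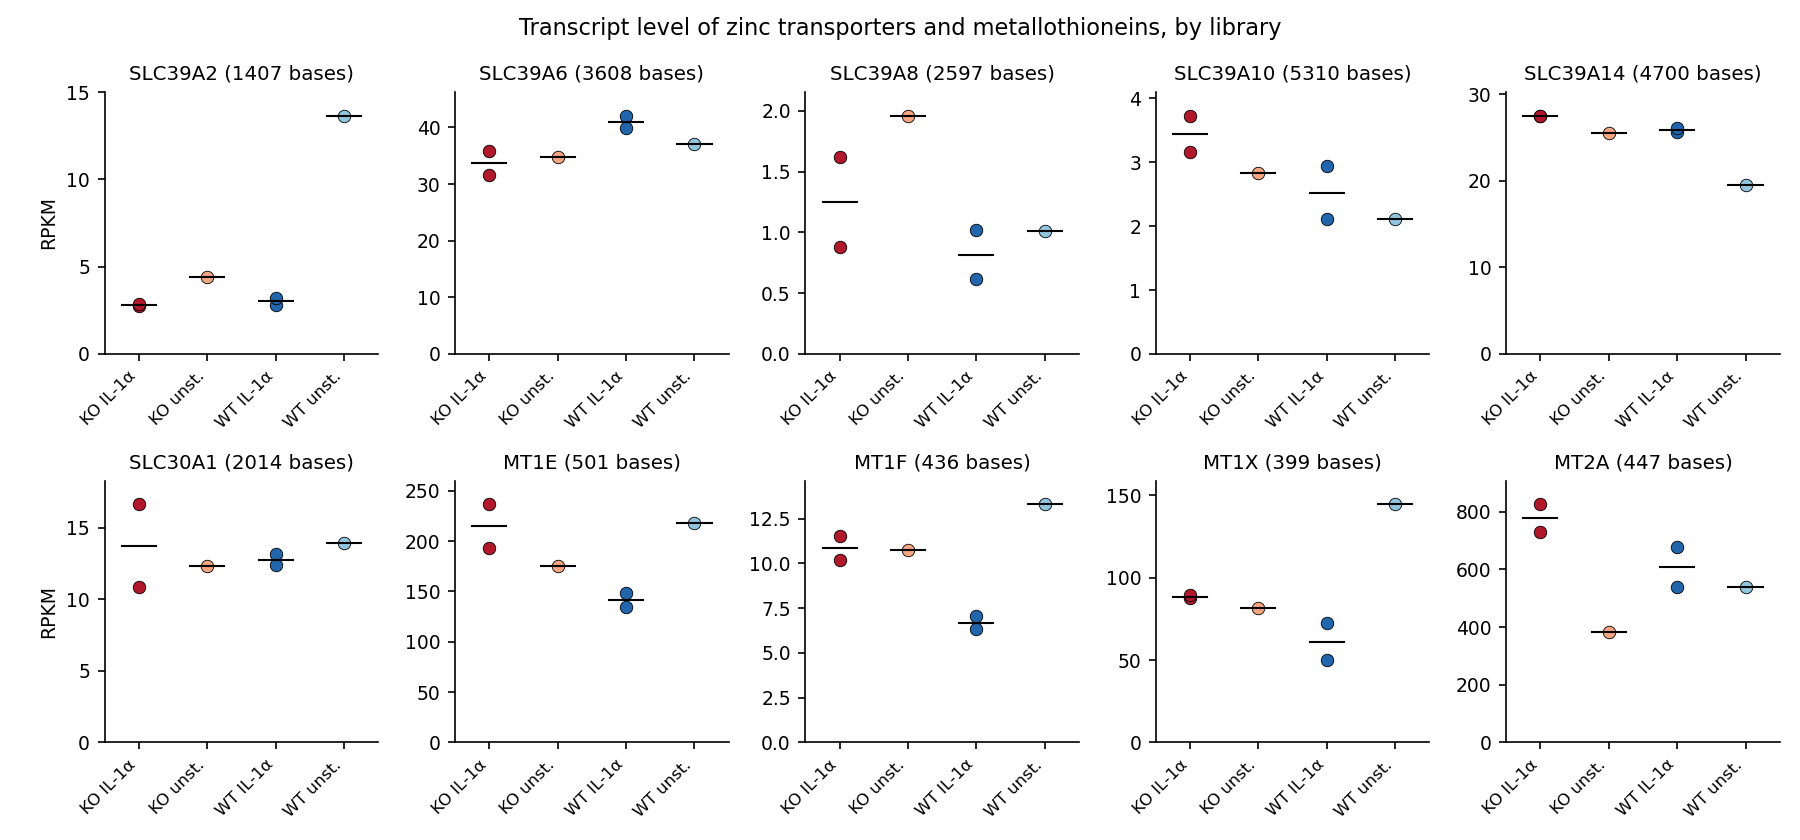
Transcript level in RPKM (vertical axis from 0) of each of the 10 genes, with 1 point per library and a line at the group mean; the transcript length is given beside each name. SLC39A2 was at 13.6 RPKM in unstimulated wild-type cells and at 2.76 to 4.39 RPKM in the other 5 libraries, while MT2A had its lowest value, 382 RPKM, in unstimulated knockout cells.

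MT2A, the most abundant metallothionein here, was higher with IL-1α in knockout cells than without it in both libraries, by about 2-fold, and the MT1 genes were close to their unstimulated level. MT2A (chromosome 16, 56642445 to 56643409, hg19) had 825 and 728 RPKM in knockout IL-1α libraries, against 382 RPKM in unstimulated knockout cells. Both stimulated values lay above the unstimulated one, as for 27.8% of genes tested, and the log2 change was 1.02 ± 0.25 (SE; adjusted p = 0.645). With the length trend removed it was 1.05. MT1E, another zinc-binding family member (56659585 to 56661024), had 237 and 193 RPKM in knockout IL-1α libraries, against 176 RPKM in unstimulated knockout cells (log2 0.28 ± 0.22, adjusted p = 1). MT1X (56716382 to 56718108) had 87.7 and 89.3 RPKM in knockout IL-1α libraries, against 81.8 RPKM in unstimulated knockout cells (log2 0.11 ± 0.26, adjusted p = 1). The least abundant of the 4, MT1F (56691855 to 56693215), had 11.5 and 10.2 RPKM in knockout IL-1α libraries, against 10.8 RPKM in unstimulated knockout cells, so the stimulated libraries lay on either side of the unstimulated one (log2 0.01 ± 0.21, adjusted p = 1).

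In wild-type cells the MT1 genes read lower with IL-1α than without it and MT2A read about level. MT1X had 72.3 and 50.2 RPKM in wild-type IL-1α libraries, against 144.6 RPKM in unstimulated wild-type cells. Its log2 change was -1.26 ± 0.26 (SE; adjusted p = 0.128) as deposited and -0.63 with the length trend removed. For MT1F the libraries gave 7.04 and 6.31 RPKM with IL-1α in wild type, against 13.3 RPKM unstimulated (log2 -0.95 ± 0.21, adjusted p = 0.142, and -0.31 with the trend removed). MT1E gave 149 and 135 RPKM with IL-1α in wild type, against 218 RPKM unstimulated (log2 -0.62 ± 0.22, adjusted p = 0.229), and its change came to 0.01 with the trend removed. The stimulated and unstimulated values did not overlap for any of these 3 genes, but 54.3% of genes tested lay lower without overlap in wild type, none of the 3 passed, and genes under 600 bases had a median of -0.52 in this comparison. MT2A had 678 and 540.4 RPKM in wild-type IL-1α libraries, against 539.7 RPKM in unstimulated wild-type cells. One stimulated library was nearly equal to the unstimulated one and the log2 change was 0.17 ± 0.25 (adjusted p = 0.759), becoming 0.80 (adjusted p = 0.134) with the length trend removed. All genes tested had a median log2 change of -0.14 in wild type and -0.02 in knockout.

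**Figure D3:**
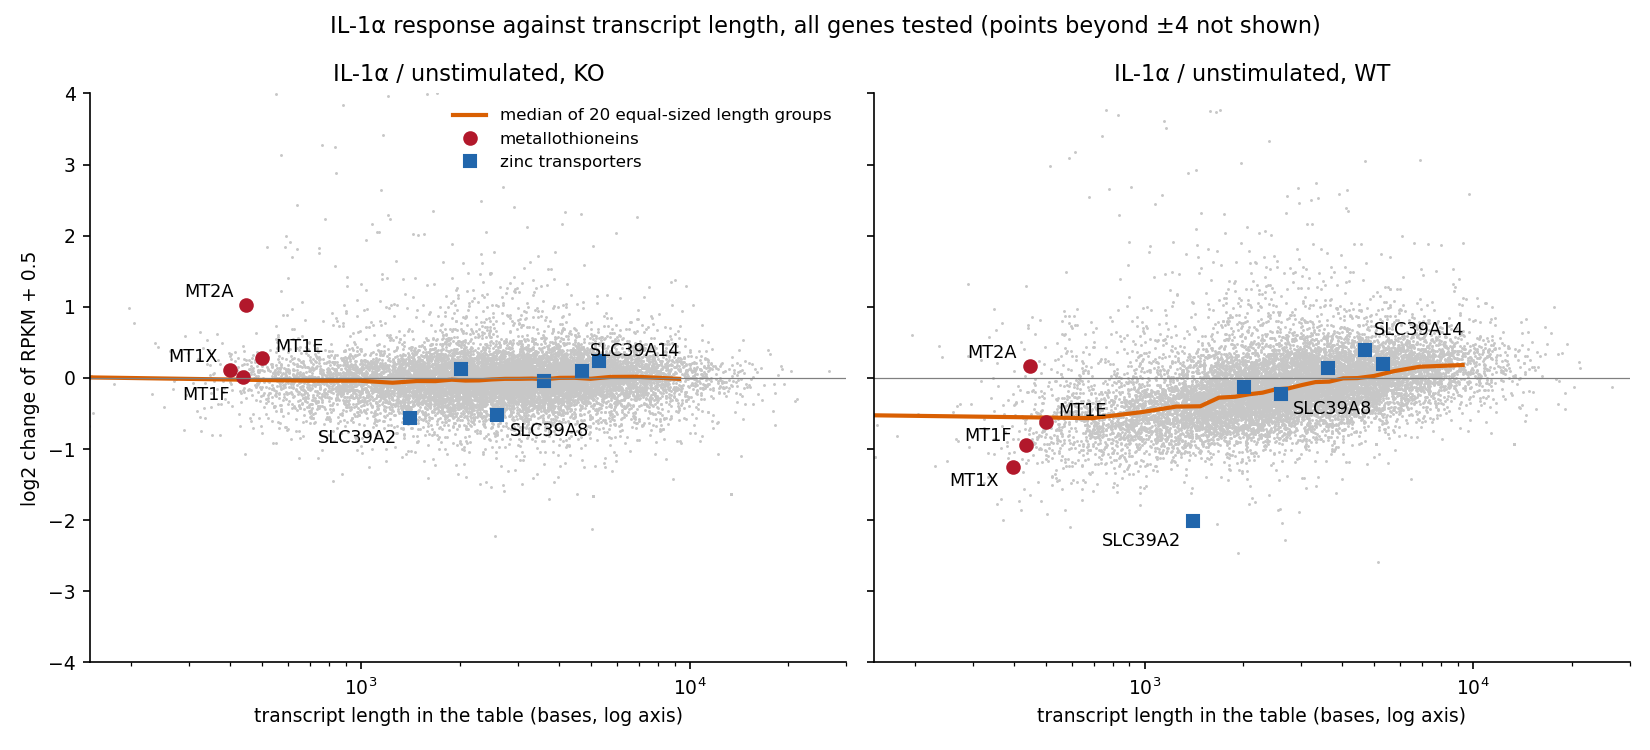
IL-1α response (log2 change of RPKM + 0.5, vertical) against transcript length in bases (log axis) for all 12925 genes tested (grey), with metallothioneins as red circles, the zinc transporters as blue squares and the median of length groups as an orange line; knockout is on the left and wild type on the right. The orange line is flat in knockout and slopes in wild type, where MT1E sits on it, MT1F and MT1X below it and MT2A above it, and SLC39A2 lies far below genes of its length.

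Under IL-1α, where both genotypes have 2 libraries and short genes as a class did not differ, all 4 metallothioneins read higher in knockout than in wild-type cells. MT1E averaged 215 ± 30.8 RPKM in knockout and 142 ± 9.82 RPKM in wild type (SD, n = 2 each; log2 difference 0.59 ± 0.18 SE, limma adjusted p = 0.245). MT1F averaged 10.8 ± 0.96 RPKM in knockout and 6.67 ± 0.514 RPKM in wild type (log2 0.66 ± 0.17, limma adjusted p = 0.200). MT1X averaged 88.5 ± 1.14 RPKM in knockout and 61.2 ± 15.6 RPKM in wild type (log2 0.55 ± 0.21, limma adjusted p = 0.310). The groups did not overlap for any of these genes, nor for MT2A, which averaged 776 ± 68.9 RPKM in knockout and 609 ± 97.4 RPKM in wild type (log2 0.36 ± 0.21, limma adjusted p = 0.458). Knockout libraries lay above wild-type ones without overlap for 32.4% of all genes tested. With the length trend removed the 4 differences were 0.60, 0.68, 0.57 and 0.37. With median-of-ratios rescaling they were 0.49, 0.56, 0.45 and 0.25, and with quantile normalization 0.68, 0.58, 0.58 and 0.59. Without 1 IL-1α library MT1E ranged over 0.45 to 0.74, MT1F over 0.57 to 0.75, MT1X over 0.29 to 0.81 and MT2A over 0.19 to 0.52. All genes tested had a median log2 difference of 0.09 in this comparison. None passed over all genes.

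Without stimulation the 4 metallothioneins read lower in the knockout library than in the wild-type one, and this rests on 1 library a genotype with no test. MT1X had 81.8 RPKM in knockout and 144.6 RPKM in wild type, a read ratio of 0.566 (exact 95% interval 0.519 to 0.617, counting error only). MT2A had 382 RPKM in knockout and 539.7 RPKM in wild type (ratio 0.708, interval 0.680 to 0.737), MT1E 176 RPKM in knockout and 218 RPKM in wild type (ratio 0.808, interval 0.762 to 0.856), and MT1F 10.8 RPKM in knockout and 13.3 RPKM in wild type (ratio 0.809, interval 0.625 to 1.05). On the log2 scale the differences were -0.82, -0.50, -0.31 and -0.29. With the length trend removed they were -0.19 for MT1X and 0.12, 0.29 and 0.33 for MT2A, MT1E and MT1F, whose direction turns with that correction. With quantile normalization they were -0.64 for MT1X, -0.0125 for MT2A, 0.0605 for MT1E and -0.27 for MT1F. No metallothionein reached 2-fold, which 9.5% of genes tested did (4.02% higher and 5.49% lower in knockout).

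The metallothioneins were also set against each other as ratios of RPKM. The part of transcript length in these ratios was not tested, and they were not recomputed with the length trend removed. With that trend removed the wild-type response (log2) went from 0.17 to 0.80 for MT2A and from -0.62 to 0.01 for MT1E. For MT1X it went from -1.26 to -0.63 and for MT1F from -0.95 to -0.31. In knockout it went from 1.02 to 1.05 for MT2A and from 0.28 to 0.31 for MT1E. The knockout values of MT1X were 0.11 and 0.13, and those of MT1F 0.01 and 0.03. MT2A was 3.49 and 3.77 times MT1E in knockout IL-1α libraries, 4.56 and 4.01 times in wild-type IL-1α libraries, 2.17 times in unstimulated knockout cells and 2.48 times in unstimulated wild-type cells. Relative to MT1X it was 9.41 and 8.15 times in knockout IL-1α, 9.38 and 10.8 times in wild-type IL-1α, 4.67 times in unstimulated knockout and 3.73 times in unstimulated wild-type cells. Relative to MT1F the ratio was 71.6 in both knockout IL-1α libraries, 96.4 and 85.6 in wild-type IL-1α, 35.5 in unstimulated knockout and 40.6 in unstimulated wild-type cells. In all 3 ratios the 4 IL-1α libraries lay above both unstimulated ones, in either genotype. The 3 ratios share MT2A, so they are not 3 separate observations, and the share of other gene pairs with this order was not counted. By its level alone MT2A also had its 4 IL-1α libraries above both unstimulated ones (540.4 against 539.7 RPKM at the nearest), as did 7.14% of genes tested. MT2A made up 71.1% and 71.3% of the summed RPKM of the 4 genes in knockout IL-1α, 74.8% and 73.9% in wild-type IL-1α, 58.7% in unstimulated knockout and 59.0% in unstimulated wild-type cells. A ratio shows unequal change and not which gene moved, and it was not tested, as the genes were chosen with these values known.

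**Figure D4:**
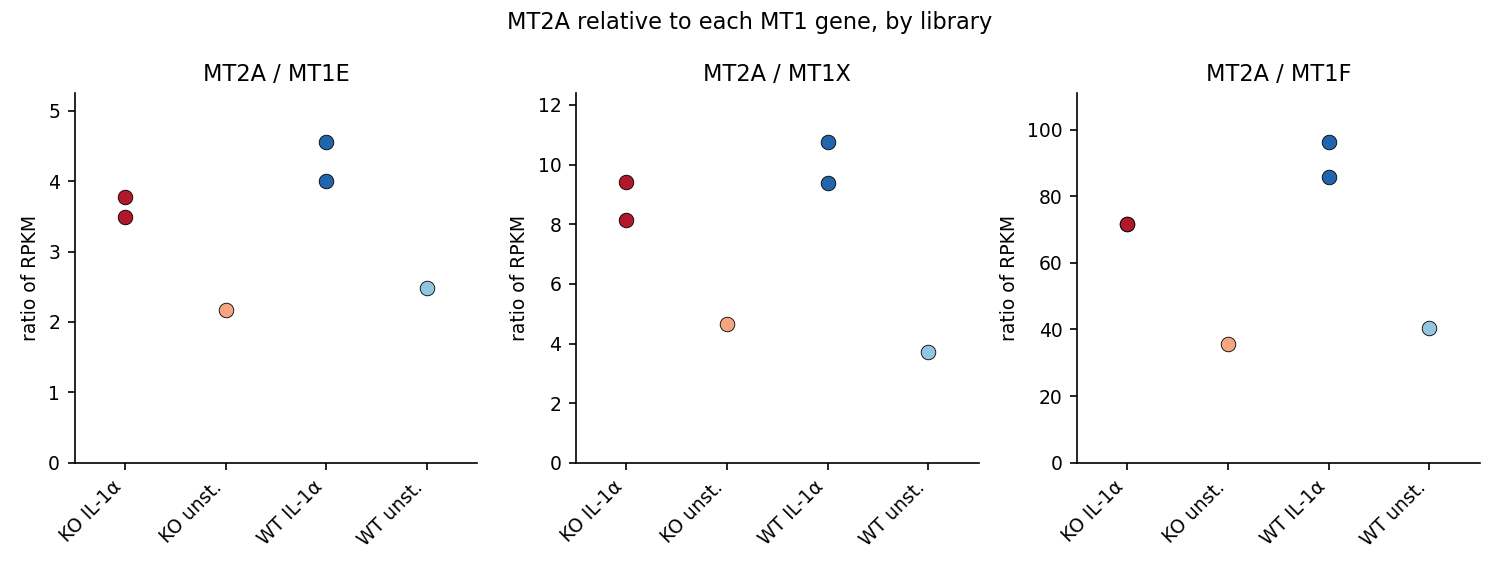
Ratio of MT2A to MT1E, MT1X and MT1F in RPKM (vertical axes from 0), 1 point per library. The 4 IL-1α libraries lie above both unstimulated libraries in each panel, for MT1E at 3.49 to 4.56 against 2.17 and 2.48. All 3 panels share MT2A, and the share of other gene pairs with this order was not counted.

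The 4 metallothionein genes lie in 1 cluster on chromosome 16 and are alike in sequence, which bears on how far their reads can be told apart. Of the distinct stretches of 50 bases in the GENCODE transcripts of MT1E, 4.19% also occurred in another of the 12 metallothionein genes looked at, and the shares were 3.37% for MT1X, 1.58% for MT2A and 1.22% for MT1F. These shares pool all GENCODE transcripts of a gene, 1098 stretches for MT1E, whose measured transcript has 501 bases. The share within the measured transcripts was not counted and may be higher. The read length is not given in the sources used here, and shorter reads would be shared more often. Between 50 (MT1F, wild-type IL-1α) and 9685 reads (MT2A, knockout IL-1α) stood behind each metallothionein value.

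SLC39A2, which encodes ZIP2, a plasma-membrane importer linked to keratinocyte differentiation, was several times higher in unstimulated wild-type cells than in any other library, a pattern that also entered the choice of the gene. SLC39A2 (chromosome 14, 21467414 to 21470034, hg19, 1407 bases of transcript) had 2.79 and 3.22 RPKM in wild-type IL-1α libraries, against 13.6 RPKM in unstimulated wild-type cells. The log2 change was -2.01 ± 0.23 (SE; limma adjusted p = 0.0478), and -1.64 (adjusted p = 0.0434) with the length trend removed; it is given as a description, since these values chose the gene. It had 2.76 and 2.84 RPKM in knockout IL-1α libraries, against 4.39 RPKM in unstimulated knockout cells, a log2 change of -0.57 ± 0.23 (adjusted p = 1). All 4 stimulated values lay below both unstimulated ones, as for 13.2% of genes tested, and the 4 stimulated libraries ran only from 2.76 to 3.22 RPKM. Under IL-1α the genotypes differed by less than the spread of the wild-type replicates, at 2.80 ± 0.057 RPKM in knockout and 3.01 ± 0.303 RPKM in wild type (SD, n = 2 each; limma adjusted p = 0.859). The responses differed by 1.45 ± 0.32 on the log2 scale between genotypes, knockout minus wild type, without passing (interaction adjusted p = 0.966), and by 1.12 with the length trend removed.

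The genotypes stood furthest apart for SLC39A2 without stimulation, at 4.39 RPKM in knockout (216 reads) and 13.6 RPKM in wild type (321 reads). The read ratio was 0.322 (exact 95% interval 0.270 to 0.384, counting error only), and the log2 difference was -1.53 as deposited and -1.27 with the length trend removed. It was the 1 of 10 zinc genes at least 2-fold apart between the unstimulated libraries, lower in knockout as were 5.49% of genes tested. The unstimulated wild-type library is on 1 side of both large differences of this gene. That library was at least 2-fold above all the other 5 for 1.08% of genes tested, SLC39A2 included. The adjusted p in wild type no longer passed with pseudocount 0.1 (adjusted p = 0.0553), without a low-value filter (0.150), with quantile normalization (0.0558), with voom weights (0.0505) and without any 1 of the IL-1α libraries (0.441 and 0.735 without wild-type replicates 1 and 2, 0.0724 and 0.0736 without knockout replicates 1 and 2), while the log2 change lay between -2.15 and -1.87 in these settings.

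Genes with the profile most like that of SLC39A2 over the 6 libraries, by root mean square difference of centred log2 values among 8422 other genes averaging at least 5 RPKM, were PET100, a factor of cytochrome c oxidase assembly (0.24 log2 units), SNHG19, a host gene of small nucleolar RNAs (0.25), and NME3, a nucleoside diphosphate kinase (0.26). Their transcripts are 333, 355 and 1007 bases long. PET100 had 12.8 and 10.4 RPKM in knockout IL-1α, 14.6 and 14.6 RPKM in wild-type IL-1α, 15.6 RPKM in unstimulated knockout and 39.1 RPKM in unstimulated wild-type cells.

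**Figure D5:**
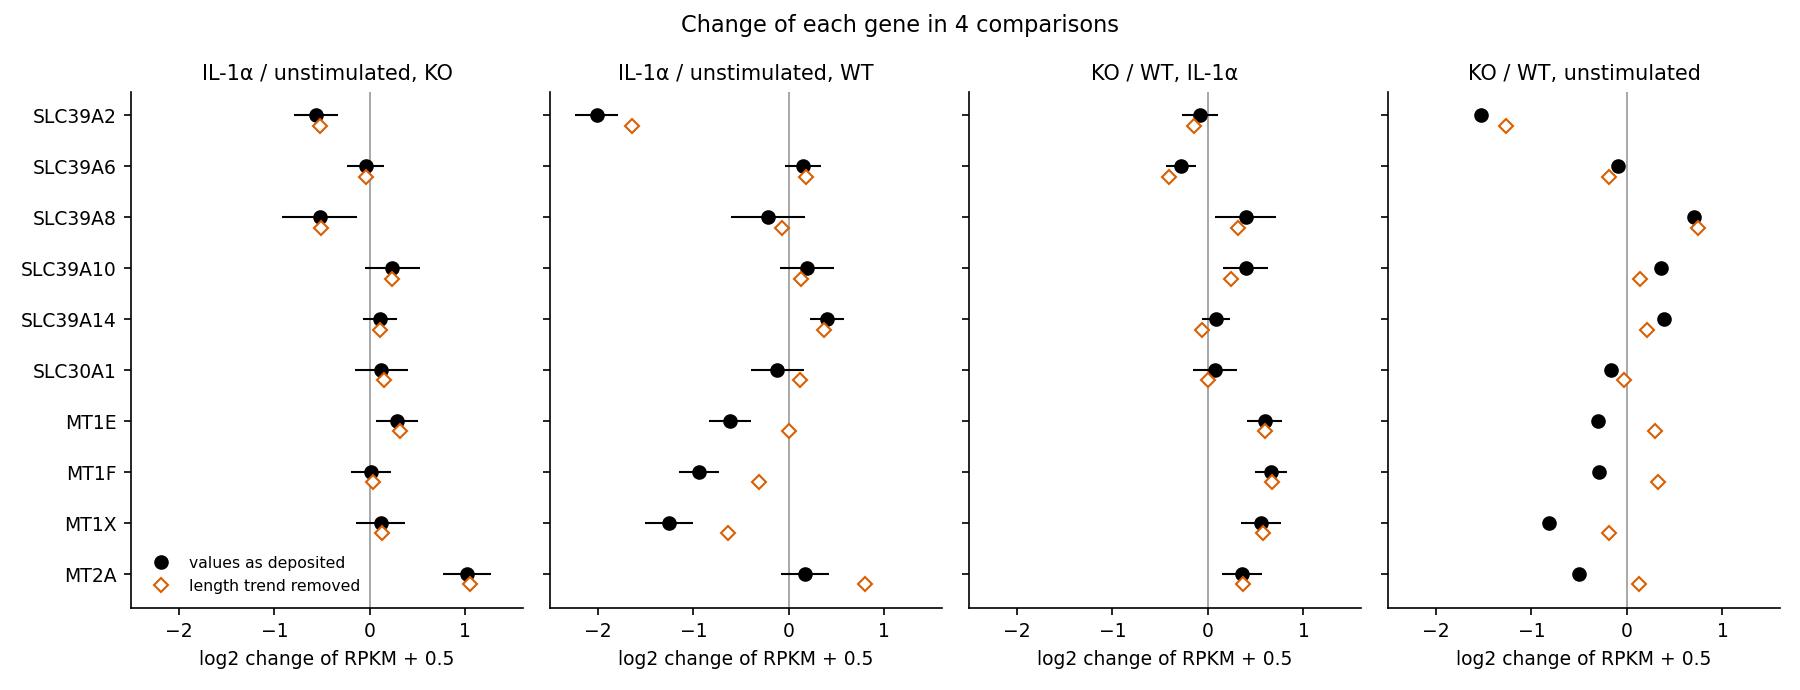
Log2 change of RPKM + 0.5 for each gene in 4 comparisons (IL-1α over unstimulated in knockout and in wild type, knockout over wild type under IL-1α and unstimulated); black points are values as deposited with their SE (none for the unstimulated comparison, which has 1 library a group), and open diamonds the values with the length trend removed. The diamonds of the metallothioneins leave the points by about 0.6 in the 2 panels that use the unstimulated wild-type library, and lie on them in the others.

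None of the other 4 importers passed a test. SLC39A14, which encodes ZIP14, a carrier of zinc, manganese and iron (chromosome 8, 22224743 to 22280249), had 25.6 and 26.0 RPKM in wild-type IL-1α libraries, against 19.5 RPKM in unstimulated wild-type cells. Both stimulated values lay above the unstimulated one, an order whose share over all genes was not counted. The log2 change of SLC39A14 was 0.40 ± 0.18 (limma adjusted p = 0.312), and 0.37 with the length trend removed. In knockout cells it had 27.5 RPKM in both IL-1α libraries, against 25.5 RPKM unstimulated. The unstimulated knockout library was above the unstimulated wild-type one for this gene (read ratio 1.31, interval 1.24 to 1.39; log2 0.38, and 0.21 with the length trend removed), while under IL-1α the genotypes stood at 27.5 ± 0.011 RPKM in knockout and 25.8 ± 0.305 RPKM in wild type. That log2 difference was 0.09 ± 0.15 (limma adjusted p = 0.809) and -0.06 with the length trend removed, so no direction is given.

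SLC39A6, which encodes ZIP6, was the most abundant of the 5 importers. It had 35.9 and 31.6 RPKM in knockout IL-1α, 39.99 and 42.1 RPKM in wild-type IL-1α, 34.8 RPKM in unstimulated knockout and 37.0 RPKM in unstimulated wild-type cells. The knockout lay below wild type in each condition, with no overlap under IL-1α (limma adjusted p = 0.441), where 16.3% of genes tested lay below without overlap. How many genes lay below in both conditions was not counted. SLC39A10, which encodes ZIP10, a partner of ZIP6 in a heteromeric transporter, was at 3.16 and 3.73 RPKM in knockout IL-1α, 2.10 and 2.94 RPKM in wild-type IL-1α, 2.84 RPKM in unstimulated knockout and 2.12 RPKM in unstimulated wild-type cells. For this gene the knockout was above wild type in each condition. The difference was 0.39 ± 0.23 on the log2 scale under IL-1α (limma adjusted p = 0.466), where 32.4% of genes tested lay above without overlap. Without IL-1α the read ratio was 1.34 (interval 1.13 to 1.59, log2 0.35). The share of genes above in both conditions was not counted. With the length trend removed the log2 differences of SLC39A10 were smaller, 0.24 under IL-1α and 0.14 without it.

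SLC39A8, which encodes ZIP8, was the lowest of the 10 genes and the least precise. It had 1.62 and 0.880 RPKM in knockout IL-1α (92 and 68 reads), 0.614 and 1.02 RPKM in wild-type IL-1α (26 and 49 reads), 1.96 RPKM in unstimulated knockout and 1.01 RPKM in unstimulated wild-type cells. The replicates of each IL-1α group lay far apart and the genotypes overlapped, with a log2 difference of 0.39 ± 0.32 (adjusted p = 0.590). Without stimulation the knockout library was higher by a read ratio of 1.94 (interval 1.39 to 2.76; log2 0.70, and 0.75 with the length trend removed). With IL-1α it had a log2 change of -0.53 ± 0.39 in knockout (adjusted p = 1) and none that passed in wild type (adjusted p = 0.798, 1 library below and 1 above the unstimulated 1.01 RPKM).

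SLC30A1, which encodes ZnT1, the zinc exporter of the plasma membrane and itself an MTF1 target, passed no test. It had 10.8 and 16.6 RPKM in knockout IL-1α, 12.4 and 13.1 RPKM in wild-type IL-1α, 12.3 RPKM in unstimulated knockout and 13.9 RPKM in unstimulated wild-type cells. The spread between the knockout IL-1α replicates was as wide as that between any groups (13.7 ± 4.11 RPKM in knockout and 12.8 ± 0.513 RPKM in wild type, SD, n = 2 each; limma adjusted p = 0.904).

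Among 28 further zinc genes, 12 reached 1 RPKM in at least 1 library and 0 of the 12 passed in any of the 4 tests by limma, with 1, 0, 1 and 0 at unadjusted p below 0.05 for the wild-type response, the knockout response, the genotypes with IL-1α and the interaction, where all genes gave 18.1%, 3.58%, 14.9% and 4.39%. Their median log2 change was -0.12 in the wild-type response and -0.04 in the knockout response, against medians of -0.14 and -0.02 over all genes. SLC39A1, encoding the importer ZIP1, was the most abundant transporter at 105 and 132 RPKM in knockout IL-1α, 123 and 118 RPKM in wild-type IL-1α, 97.3 RPKM in unstimulated knockout and 129.9 RPKM in unstimulated wild-type cells. The next importers among these further genes were SLC39A13, of the Golgi and vesicles, and SLC39A9, averaging 17.0 and 14.2 RPKM over the 6 libraries, and the leading exporters among them were SLC30A9, SLC30A5 and SLC30A6 at 11.9, 11.8 and 6.49 RPKM. MTF1 had 3.68 and 4.58 RPKM in knockout IL-1α, 4.11 and 5.76 RPKM in wild-type IL-1α, 3.22 RPKM in unstimulated knockout and 3.88 RPKM in unstimulated wild-type cells.

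Of 8 further metallothioneins, 1 reached 1 RPKM, MT1L, which the table lists as a pseudogene. MT1L had 9.72 and 5.40 RPKM in knockout IL-1α, against 2.76 and 3.19 RPKM in wild-type IL-1α (log2 1.16 ± 0.29, limma adjusted p = 0.197). Without stimulation it had 7.30 RPKM in knockout and 4.52 RPKM in wild type (read ratio 1.61, interval 1.08 to 2.48, log2 0.64, and 1.26 with the length trend removed). The knockout was thus above wild type in each condition. Under IL-1α, 32.4% of genes tested lay above without overlap, and the share above in both conditions was not counted. MT1G and MT1A averaged 0.439 and 0.171 RPKM, and MT1B, MT3 and MT4 were listed at 0 in every library. SLC39A7, an importer of the endoplasmic reticulum, was listed at 0 everywhere too, but it has 6 annotated places, and 671 of 908 genes with more than 1 place were at 0 throughout, so no level is read from it.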

How the data were processed

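Per the submitters' processing notes, reads were handled with bcl2fastq (2.20.0.422), STAR and HOMER on hg19, the last 2 without a version. The deposited RPKM values (columns headed FPKM), 1 per gene and library, came from HOMER's exon counting with 1 line per gene, per the file headers; the strand setting is not stated, so reads of overlapping genes on the other strand may be included. The authors divided by annotated transcript length. The 10 genes and all lists, rules and tests were chosen with earlier results of these data known. The rule for named genes took all 10 members, of 28 further zinc genes those that passed or were among the 3 most abundant of their class, MTF1, and the 3 genes most like 1 member of each class. The 12925 genes that reached 1 RPKM in some library entered a limma fit (3.58.1, under R 4.3.3) of log2(RPKM + 0.5), with a coefficient for each group, trended empirical Bayes and p-values adjusted by Benjamini-Hochberg (threshold 0.05). The spread was estimated within the IL-1α groups (2 residual degrees of freedom), and each lone unstimulated library was assumed to vary like them. A log2 change on this scale understates the change of low genes. Unstimulated genotypes were compared without a test, and counted as apart at 2-fold where the higher one reached 1 RPKM. The depth of a library is the read total at which its values of 0.02 to 1 RPKM became whole reads (tolerance 0.1 read, 100% whole); exact binomial 95% intervals of rebuilt reads cover counting error only. The length trend was a lowess fit (span 0.3) of each library's deviation from the gene mean on log2 length. The fit was tested on simulated data with independent noise and no length trend between libraries, so that test does not bear on the trend. Its check of recovered changes left out the interaction. Other settings tried were pseudocounts, filters, scalings, voom, no variance trend, a replicate block and leaving out each IL-1α library.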

Additional observations from a re-analysis of the deposited data

Results flagged for a closer look

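MT1E and MT1X drew attention because both IL-1α libraries moved one way in knockout and the opposite way in wild type. Among all genes tested, 27.8% had both knockout IL-1α libraries above the unstimulated knockout one. For 54.3%, both wild-type IL-1α libraries lay below the unstimulated wild-type one. The share of genes with both of these orders was not counted, so the pattern is not shown to be unusual. MT1E had log2 changes of 0.43 and 0.13 in the 2 knockout IL-1α libraries and of -0.55 and -0.69 in the 2 wild-type ones, each against its own unstimulated library. The difference of the responses, knockout minus wild type, was 0.90 and did not pass the interaction test (limma adjusted p = 0.966), and it was 0.31 with the length trend removed. MT1X had 0.10 and 0.13 in knockout and -0.995 and -1.52 in wild type, a difference of 1.37 (limma adjusted p = 0.966) that was 0.76 with the length trend removed. Both differences use the 1 unstimulated wild-type library, in which short transcripts as a class read high.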

How the results depend on the processing

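Of 406 alternative values of 35 gene changes, 383 kept their direction and side of the threshold, or stayed within counting error where untested. Only 1 of the tested changes, SLC39A2 in wild type, passed as deposited, and it no longer passed in 8 of 14 other settings. The rest had no pass to lose, so the count of 383 does not measure how firm a result is. Signs turned with the length trend removed for MT1E in the wild-type response (0.0059), for MT1E, MT1F and MT2A between unstimulated genotypes (0.29, 0.33 and 0.12) and for MT1L in the wild-type response (0.0937) and the interaction (-0.0798). With quantile normalization the difference between unstimulated genotypes went from -0.50 to -0.0125 for MT2A and from -0.82 to -0.64 for MT1X. In that setting MT1E between unstimulated genotypes came to 0.0605 and MT1F in the knockout response to -0.0131. Without 1 IL-1α library that MT1F change ranged over -0.0774 to 0.0953. Genes passing in wild type, 28 (26 higher, 2 lower), became 49 (2 higher, 47 lower) without a filter, 162 (106 higher, 56 lower) at a minimum of 5 RPKM, 37 (20 higher, 17 lower) without the variance trend, 48 with median-of-ratios rescaling, 96 with the length trend removed, 15 with voom, 81 (65 higher, 16 lower) with the replicate block and 0 to 46 without 1 IL-1α library. Of the 10 zinc genes, SLC39A2 passed there, and 0 passed with pseudocount 0.1, without a filter, with quantile normalization, with voom or without 1 IL-1α library (0 to 0). In knockout, 9 genes (9 higher, 0 lower) became 5 with pseudocount 1, 65 (1 higher, 64 lower) without a filter, 49 (38 higher, 11 lower) at 5 RPKM, 21 (16 higher, 5 lower) with the length trend removed, 4 without the variance trend, 2 with voom, 18 with the block and 0 to 0 without 1 library. Between genotypes under IL-1α, 20 genes (6 higher, 14 lower) became 7 with pseudocount 0.1, 0 without a filter, 88 at 5 RPKM, 13 (3 higher, 10 lower) with quantile normalization, 40 with the length trend removed, 0 without the variance trend, 56 with voom, 58 with the block and 0 to 0 without 1 library. The interaction count, 0, became 87 without a filter. The wild-type median of all genes, -0.14, came to -0.01 with median-of-ratios rescaling. Replicate differences in knockout and wild type were nearly uncorrelated over genes (correlation 0.0086). That value cannot tell whether IL-1α libraries of the same replicate number were handled together, and the labels do not say. The block changed no call of the 10 genes. The cause of these shifts was not tested. Depth limits SLC39A8, at 26 reads in 1 library, and MT1F, at 50.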

Other observations

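Genes with the profile most like that of MT1X over the 6 libraries were the antisense RNA PITPNA-AS1 (0.12 log2 units), the p53-inducible oxidoreductase TP53I3 (0.12) and SNHG11, a host gene of small nucleolar RNAs (0.13). TP53I3 had 5.69 and 5.99 RPKM in knockout IL-1α, 4.54 and 2.96 RPKM in wild-type IL-1α, 5.07 RPKM in unstimulated knockout and 7.58 RPKM in unstimulated wild-type cells. For the exporter SLC30A1 the nearest were BTBD3, PRMT5, an arginine methyltransferase, and DNAJC11, at 0.03, 0.03 and 0.05 log2 units. PRMT5 had 50.2 and 78.1 RPKM in knockout IL-1α, against 54.7 RPKM in unstimulated knockout cells.

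The summed level of the 4 metallothioneins was 1161 and 1020.2 RPKM in knockout IL-1α, 906 and 732 RPKM in wild-type IL-1α, 650.2 RPKM in unstimulated knockout and 915 RPKM in unstimulated wild-type cells. The summed level of the 5 importers was 70.9 and 66.5 RPKM in knockout IL-1α and 71.1 and 75.3 RPKM in wild-type IL-1α. Without stimulation it was 69.5 RPKM in knockout and 73.3 RPKM in wild-type cells, so the importer sum had the narrower range. Sums follow their most abundant genes, so this range does not describe SLC39A2, at 13.6 RPKM in unstimulated wild-type cells and 2.76 to 4.39 RPKM elsewhere. Short transcripts, metallothioneins among them, were read high in the unstimulated wild-type library.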
